A study of Mus musculus with 20 samples.

Results

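The nuclear-encoded subunits of the respiratory chain and of ATP synthase were compared in the livers of 4 inbred mouse strains. Genes were chosen by name, from probe sets that the platform annotation pairs with 1 gene symbol: symbols starting with Nduf, Uqcr, Cox4, Cox5, Cox6, Cox7, Cox8 or Atp5, together with the succinate dehydrogenase genes Sdha, Sdhb, Sdhc and Sdhd, and with Cyc1 and Cycs. This gave 91 genes among 19938 with a probe set of their own, and 90 of the 91 were bright enough to test, among 14190 tested genes. Where a gene had several probe sets (18 genes), the one with the highest mean over all 20 arrays stood for it. The genes fall into 34 tested subunits of complex I, 7 assembly factors of complex I (the Ndufaf genes), 4 subunits of complex II, 9 of complex III, cytochrome c (Cycs), 17 of complex IV, the supercomplex factor Cox7a2l and 17 of ATP synthase. Ndufa4 and Ndufa4l2 were counted with complex IV. Cox7c and Ndufb4 shared their probe sets with other symbols and were not used.

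Liver RNA came from 20 male mice, 5 of each strain, and each animal was measured on 1 whole-transcript array. The strains were NZO/Hl (NZO below), which is known for obesity and diabetes, C57/Bl6 (B6), C3H and 129P2/OlaHsd (129P2). All mice were 6 weeks old and had been fed a diet with 45% of its energy as fat, 20% as protein and 35% as carbohydrate from weaning at 21 days, so no strain was measured on a low-fat diet. No animal carried an engineered allele as far as the labels state, and the 4 strains differ throughout their genomes. The array study was made to find candidate genes.

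The respiratory chain lies in the inner mitochondrial membrane. Complex I takes electrons from NADH and complex II takes them from succinate, ubiquinone carries them to complex III, and the small protein cytochrome c carries them on to complex IV, which reduces oxygen. Proton pumping by complexes I, III and IV drives ATP synthase, and in hepatocytes this machinery supplies the energy for glucose and urea synthesis and takes up the electrons of fatty acid oxidation. Most subunits are encoded in the nucleus, while a small core set is encoded by mitochondrial DNA.

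Values are log2 signals, so a difference of 1 is a doubling, and each difference is given with its standard error (SE) from 1 limma fit over all 4 strains. Adjusted p-values are Benjamini-Hochberg values over the 14190 tested genes, and a difference was called at an adjusted p under 0.05. A value that did not exceed its array's own 40th percentile is termed dim. The labels tie each array to 1 animal but give no litter, so p-values measure the spread among these animals. All 10 hepatocyte markers were detected, with a summed level between 16.99 and 17.14 on every array. Of 6 markers of liver endothelial cells, NZO was lower in 4 against B6, 4 against C3H and 3 against 129P2, and their summed level ran from 10.89 to 11.34 in NZO and over 11.36 to 11.85 in B6, 11.34 to 11.80 in C3H and 11.37 to 11.77 in 129P2. Of 6 stellate cell markers NZO was lower in 3, 2 and 3, with summed levels of 11.15 to 11.87 for NZO, 11.62 to 12.47 for B6, 11.89 to 12.10 for C3H and 11.84 to 12.22 for 129P2. Against B6, C3H and 129P2, 6.64%, 3.09% and 4.61% of all tested genes were lower in NZO. Of 6 Kupffer cell markers, only Clec4f was called in comparisons with NZO, lower in NZO than in B6 and 129P2. Between the other strains, Adgre1 was lower in C3H than in B6 and 129P2. Timd4 was lower in C3H than in 129P2, and Marco was lower in 129P2 than in B6. Of 3 tested neutrophil markers, only S100a9 was called, higher in NZO than in B6. The 1 erythroid marker measured, Alas2, was higher in NZO than in B6 and 129P2. In whole tissue, fewer cells of a type and less RNA per cell cannot be told apart. The part of these cell types in the differences below was not tested.

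The strain means of most of these genes lay close together, as did those of most tested genes. The range of the 4 strain means had a median of 0.22 over the 90 genes and 0.195 over all tested genes. It stayed under 0.3 in 68 of the 90, and in 10766 of all 14190 tested genes. The moderated F-test over the 4 strains called 14 of 90 genes, or 15.6%, where it called 17% of all tested genes. The 14 include Ndufaf5, which met the filter only through NZO, where it is high. The count of called genes moved with single animals. It was 9 without B6 replicate 4, B6 replicate 5 or NZO replicate 2 (13.9%, 15.2% and 15.7% of all tested genes) and 8 without NZO replicate 3 (14.5%). It was 21 (23.3%) without NZO replicate 1, where 19.9% of all tested genes were called. With arrays weighted by their quality in limma, it was 35 of 90 (38.9%), where 29.4% of all tested genes were called. For 76 of 90 genes (84.4%) the 95% confidence intervals of all 6 pairwise differences lay within 1.5-fold, against 82.3% of all tested genes. For ATP synthase this held for 17 of 17 genes, for complex I for 29 of 34, and for complex IV for 12 of 17.

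**Figure D1:**
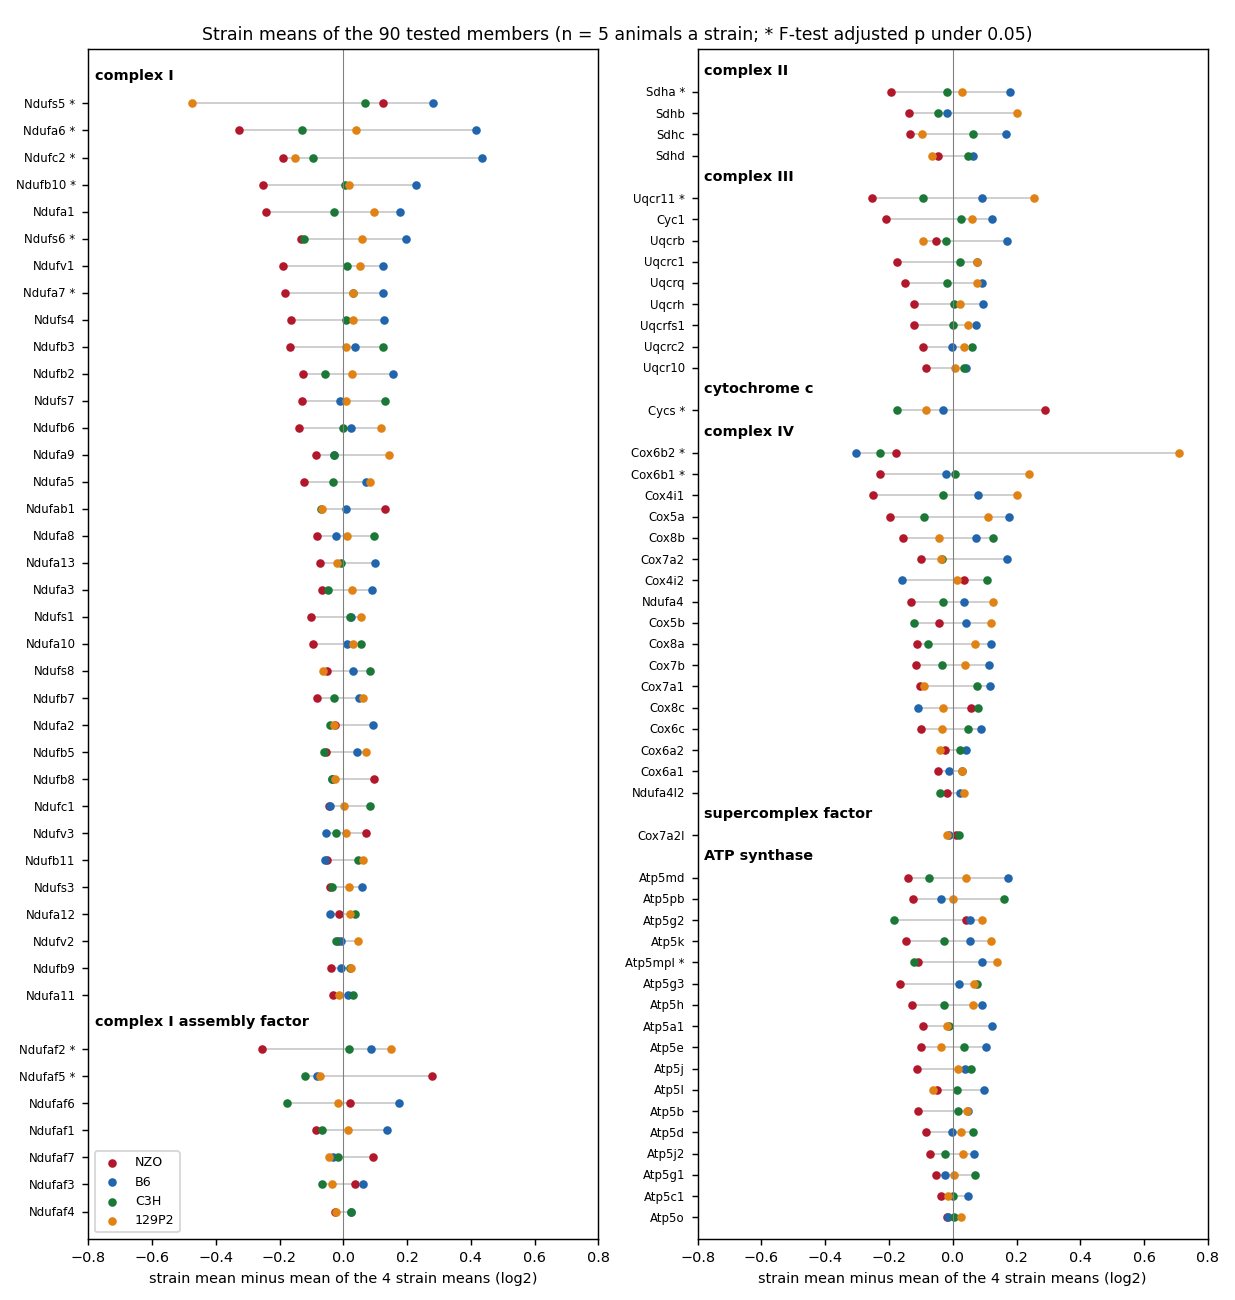
Strain means of the 90 tested genes as deviations from the mean of the 4 strain means (x axis, log2), 5 animals a strain, grouped by complex and sorted by the range of the means. An asterisk marks the 14 genes past the F-test; most ranges are under 0.3, and the red NZO point lies farthest left for 63 of 90 genes.

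The order of the strains was less even. NZO had the lowest strain mean in 63 of 90 genes (70%), against 23.7% of all tested genes, and B6 had the highest in 41 (45.6%), against 29%. By complex, NZO was lowest for 24 of 34 subunits of complex I, 3 of 4 of complex II, 8 of 9 of complex III, 11 of 17 of complex IV and 14 of 17 of ATP synthase, but for 3 of 7 assembly factors. The sizes were small: the median difference over the 90 genes was -0.15 for NZO minus B6, -0.09 for NZO minus C3H and -0.11 for NZO minus 129P2, while the medians over all tested genes were 0.01, 0.00 and 0.01. These 3 comparisons share the NZO arrays.

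The level of these genes on an array went with the spread of its values. The median over the 90 genes was 10.03 ± 0.25 (SD, n = 5) for NZO, 10.19 ± 0.10 for B6, 10.14 ± 0.15 for C3H and 10.17 ± 0.06 for 129P2, and the 5 NZO arrays ran from 9.78 to 10.37, so they overlapped every other strain. Across the 20 arrays that median followed the interquartile range of the array (r = 0.65, and r = 0.72 as deviations from the strain means, both descriptions over arrays of 4 strains). The interquartile range had a mean of 2.33 for NZO, 2.43 for B6, 2.31 for C3H and 2.32 for 129P2. By exact two-sided permutation tests, 129P2 minus B6 gave p = 0.0238 and C3H minus B6 p = 0.0317, both 0.0952 after adjustment over 6 comparisons. Of the 90 genes, 46 (51.1%) followed array spread within strains in limma, against 49% of all tested genes. The slope was above 0 in 78 of the 90, with a median of 0.94 (log2 signal per unit of interquartile range), and in 8102 of all 14190 tested genes, with a median of 0.27.

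When the fit also held array spread as a covariate (an alternative chosen with earlier results of these data known), the median differences were -0.06 for NZO minus B6, -0.11 for NZO minus C3H and -0.12 for NZO minus 129P2, so that only the first came closer to 0. The medians of C3H minus B6 and 129P2 minus B6 turned from -0.07 and -0.03 to 0.05 and 0.08. NZO then had the lowest mean in 49 of 90 genes, and in 52 of 90 without the 3 arrays of narrowest spread. The shares of all tested genes lowest in NZO under these settings are not given here. Whether the change is particular to the 90 genes was not tested. NZO replicate 1 stood apart from the other NZO animals: it had the highest median of all 20 arrays (10.37, where the other 4 NZO animals had 9.78 to 10.13) and the widest interquartile range (2.50).

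**Figure D2:**
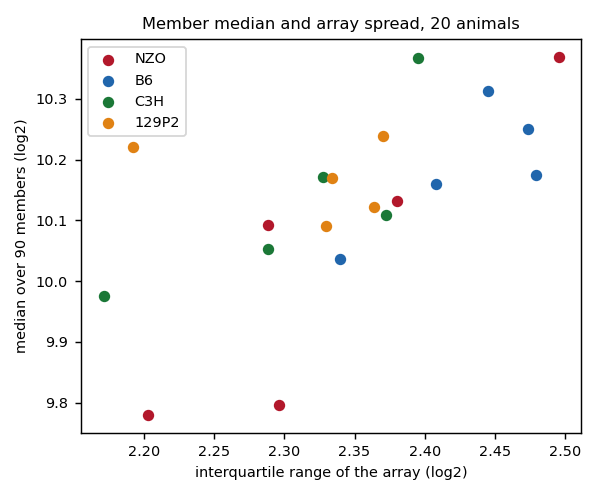
Median log2 signal over the 90 tested genes (y axis) against the interquartile range of the array (x axis, log2), 1 point for each of the 20 animals, coloured by strain. Both lowest medians (9.78 and 9.80) are NZO animals, and the highest (10.37) is NZO as well.

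The pairwise comparison with most calls was NZO minus B6, and most of its calls were lower in NZO. For NZO minus B6, 9 of 90 genes were lower and 2 higher, where 6.64% of all tested genes were lower and 3.63% higher (10.3% in all). For NZO minus 129P2, 6 were lower and 3 higher, against 4.61% and 4.29% of all tested genes (8.9% in all). For NZO minus C3H, 0 were lower (10 at an unadjusted p under 0.05 in limma) and 2 higher, against 3.09% and 3.51% (6.6% in all). Ndufaf5, which met the filter only through NZO, is among the higher genes in each of these comparisons with NZO. For C3H minus B6, 4 were lower and 1 higher, against 5.34% and 2.71% (8.05% in all). For 129P2 minus B6, 3 were lower and 1 higher, against 4.08% and 2.11% (6.19% in all). For C3H minus 129P2, 1 was lower and 1 higher, against 2.78% and 2.25% (5.03% in all). The NZO counts moved with single animals and rose without NZO replicate 1. Without it, 27 of 90 genes (30%) were called for NZO minus B6, 23 of them lower in NZO, where 15.4% of all tested genes were called, 16 (17.8%) for NZO minus 129P2, where 9.09% were, and 5 for NZO minus C3H, where 6.09% were. Without NZO replicate 3, 7 were called for NZO minus B6 (7.45% of all tested genes), and without NZO replicate 4, 4 for NZO minus C3H (5.83%). The 5 calls of C3H minus B6 fell to 2 or 3 without any of B6 replicates 1, 3, 4 or 5, C3H replicates 1, 3, 4 or 5, NZO replicate 3 or 129P2 replicate 4, where 5.15% to 7.62% of all tested genes were called. With array weights, 37 of 90 (41.1%) were called for NZO minus B6, 34 of them lower in NZO, against 22.3% of all tested genes, and 26 (28.9%) for NZO minus 129P2, against 14.8%.

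In all, 18 genes had 33 calls, and 18 of the 33 were kept in all of the 31 alternative fits that tested the gene. These are the fits with another processing choice and those without each animal in turn (Ndufaf5 was too dim for the stricter filter). Cox6b2 met the stricter filter only through 129P2, where it is high, so that fit gives its calls no support. Both counts of calls include calls of Ndufaf5. That gene met the filter only through NZO, where it is high, so its calls give no support of their own. A minimum of 1.5-fold is a rule on size and changes no fit: 8 of the 33 calls reached it, all of them among the 18. With the spread covariate NZO was lower than 129P2 in 19 of the 90 genes and higher in 4, against 7.43% and 6.15% of all tested genes (13.6% in all).

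Complex I is the NADH dehydrogenase, with a peripheral arm that holds the redox centres and a membrane arm that pumps protons. Of its 34 tested genes, 6 (17.6%, against 17% of all tested genes) passed the F-test: Ndufs5, Ndufa6, Ndufc2, Ndufb10, Ndufs6 and Ndufa7. All 6 are accessory subunits, which surround the catalytic core. Only 6 of the 34 tested genes are core subunits, so most of the genes that could be called are accessory. The core subunits Ndufs1, Ndufs3, Ndufs7, Ndufs8, Ndufv1 and Ndufv2 had 0 limma calls in their 36 pairwise tests (2 at an unadjusted p under 0.05, in Ndufs7 and Ndufv1), with a median of -0.11 for NZO minus B6. Over the 6 comparisons, 5.03% to 10.3% of all tested genes were called in limma. The difference between core and accessory genes was not tested.

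Ndufa6, an accessory subunit of the peripheral arm, was highest in B6. Its signals were 10.05, 10.25, 10.26, 10.29 and 10.44 in B6, and 9.27, 9.42, 9.47, 9.64 and 9.77 in NZO. In C3H they were 9.56, 9.64, 9.71, 9.82 and 9.84, and in 129P2 9.65, 9.75, 9.94, 9.96 and 10.11. No NZO or C3H animal reached the lowest B6 animal, while 1 of the 129P2 animals did. NZO was lower than B6 by 0.74 ± 0.10 (SE; 1.67-fold; adjusted p = 3.02e-05) and C3H by 0.54 ± 0.10 (adjusted p = 0.00139). The smaller differences involving 129P2 (129P2 minus B6 -0.38, adjusted p = 0.0284; NZO minus 129P2 -0.37, adjusted p = 0.0248) depended on single animals. The first was lost without B6 replicate 1, 3, 4 or 5 or 129P2 replicate 1 or 5 (adjusted p = 0.0519 to 0.0948) and with the spread covariate (0.134). The second was lost without NZO replicate 2, 3 or 5 or 129P2 replicate 2, 3 or 4 (0.0559 to 0.0807). It was also lost with equal array medians (0.0681), with only the 2 strains in the fit (0.0672) and without the 3 arrays of narrowest spread (0.142).

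Ndufc2, an accessory subunit of the membrane arm, set B6 apart from the other 3 strains. B6 animals had 10.67, 10.80, 10.81, 10.86 and 10.92, and 129P2 animals 10.15, 10.17, 10.22, 10.25 and 10.33. NZO animals had 9.91, 10.11, 10.14, 10.27 and 10.51, and C3H animals 9.97, 10.07, 10.24, 10.44 and 10.68. Only 1 C3H animal came as high as the lowest B6 animal. Relative to B6, Ndufc2 was lower by 0.62 ± 0.12 in NZO (adjusted p = 0.000882), by 0.59 ± 0.12 in 129P2 (adjusted p = 0.00198) and by 0.53 ± 0.12 in C3H (adjusted p = 0.0051). The C3H difference had an adjusted p of 0.0502 with the spread covariate.

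Ndufs5, an accessory subunit on the intermembrane space side, was lowest in 129P2. The 129P2 animals had 8.38, 8.67, 8.75, 8.82 and 8.87. Those of B6 had 9.24, 9.39, 9.47, 9.57 and 9.58, those of NZO 9.09, 9.22, 9.32, 9.33 and 9.52, and those of C3H 8.95, 9.17, 9.23, 9.25 and 9.60. All 5 animals of 129P2 lay below all 15 others. The differences of 129P2 minus B6 (-0.75 ± 0.11, adjusted p = 0.000108), NZO minus 129P2 (0.60 ± 0.11, adjusted p = 0.00096) and C3H minus 129P2 (0.54 ± 0.11, adjusted p = 0.004) kept their calls in every alternative fit. A further probe set is shared by Ndufs5 and an Ndufs5 pseudogene symbol and was not used, so a share of copy transcripts in this signal was not tested.

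Ndufb10, of the membrane arm, was lower in NZO (8.16, 8.26, 8.46, 8.57 and 8.82) than in B6 (8.88, 8.91, 8.92, 8.97 and 8.99), with no overlap and a difference of -0.48 ± 0.10 (adjusted p = 0.00355). Signals ran from 8.53 to 8.87 in C3H and from 8.48 to 8.94 in 129P2. Ndufa7, of the peripheral arm, was lower in NZO (8.23, 8.38, 8.45, 8.48 and 8.63) than in B6 (8.59, 8.65, 8.77, 8.81 and 8.87), by 0.31 ± 0.08 (adjusted p = 0.0113), with 1 NZO animal inside the B6 range. Both calls held in every alternative fit. Ndufs6, a zinc-binding subunit of the peripheral arm, was lower in NZO (9.92 to 10.19) and C3H (9.74 to 10.30) than in B6 (10.26 to 10.52). The NZO difference was -0.33 ± 0.10 (adjusted p = 0.0308) and the C3H difference -0.32 ± 0.10 (adjusted p = 0.0419). The first was lost without B6 replicate 4 or 5 or NZO replicate 1, 2 or 3 (0.0517 to 0.0847), under quantile normalization (0.054) and with the spread covariate (0.0737). The second was lost without B6 replicate 1, 3, 4 or 5, C3H replicate 2, 3, 4 or 5, NZO replicate 3 or 129P2 replicate 4 (0.051 to 0.134). It was also lost under quantile normalization (0.108), with the spread covariate (0.144), with only the 2 strains (0.0701) and without the 3 arrays of narrowest spread (0.107). Ndufa1, an accessory subunit, had a like difference (NZO minus B6 -0.42 ± 0.14) that missed the threshold (adjusted p = 0.0561).

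**Figure D3:**
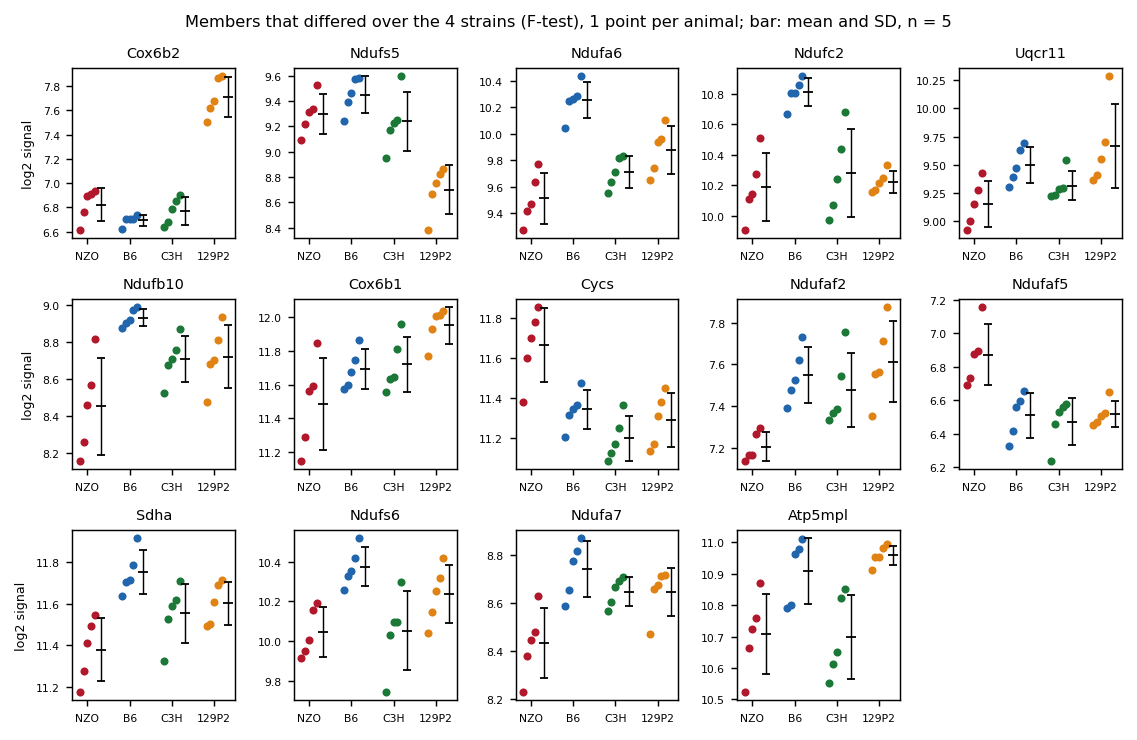
Log2 signal (y axis) of the 14 genes past the F-test in each animal, 1 point per animal and sorted by value within a strain, with the mean and SD (bar, n = 5). Cox6b2 is high and Ndufs5 low in all 5 animals of 129P2, B6 is high for Ndufa6 and Ndufc2, and NZO is high for Cycs and Ndufaf5.

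The 250 bases before the annotated gene start are printed for the complex I genes with the largest strain differences, to let the 3 patterns be set beside their promoters. The sequences are those of RefSeq on GRCm38.p6, which is a reference of the B6 background, read 5′ to 3′ on the gene's strand; capitals mark a match to GCATGCGC on either strand, the core of the site of nuclear respiratory factor 1 (NRF1), a known activator of respiratory chain genes. Its reverse complement, GCGCATGC, overlaps it in part. Ndufa6 lies on the minus strand (chr15:82354292-82354541), Ndufc2 on the plus strand (chr7:97399753-97400002) and Ndufs5 on the minus strand (chr4:123718187-123718436).
Ndufa6: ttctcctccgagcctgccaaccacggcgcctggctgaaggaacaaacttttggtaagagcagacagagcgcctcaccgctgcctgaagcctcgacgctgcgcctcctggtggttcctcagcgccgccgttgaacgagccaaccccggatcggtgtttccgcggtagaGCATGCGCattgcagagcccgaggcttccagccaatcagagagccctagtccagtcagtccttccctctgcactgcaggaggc
Ndufc2: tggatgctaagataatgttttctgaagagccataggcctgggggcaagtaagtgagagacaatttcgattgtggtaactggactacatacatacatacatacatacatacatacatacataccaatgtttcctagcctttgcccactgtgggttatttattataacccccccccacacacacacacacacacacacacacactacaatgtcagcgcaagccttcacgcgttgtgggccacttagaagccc
Ndufs5: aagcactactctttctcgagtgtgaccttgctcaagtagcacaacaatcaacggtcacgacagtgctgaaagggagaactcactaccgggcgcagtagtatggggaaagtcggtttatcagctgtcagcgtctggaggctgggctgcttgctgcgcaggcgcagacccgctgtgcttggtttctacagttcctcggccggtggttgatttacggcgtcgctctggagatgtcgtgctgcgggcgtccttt

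The match in Ndufa6 starts 83 bases before the gene start, and the other 2 windows hold none. Of the 91 genes, 74 had a promoter in the table, and 10 of these (13.5%) held the NRF1 core, against 2.56% of 27025 genes. The 10 were Atp5g2, Atp5k, Atp5l, Cox6a1, Cycs, Ndufa11, Ndufa6, Ndufa8, Ndufaf4 and Sdhb. Ndufa6 and Cycs passed the F-test, and they are 2 of the 13 genes past it that had a promoter in the table. The ETS-family letters CCGGAAG were in 13 of 74 (17.6%, against 7.83%). TCAAGGTCA, bound by oestrogen-related receptors, and AAGATGGCG, bound by YY1, were each in 1 of 74 (1.35%, against 0.42% and 0.71%). The motifs were picked after the promoters had been seen, both strands were searched, and a match is a description of the reference sequence only.

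The Ndufaf genes encode factors that build complex I and are not part of it. Ndufaf5, which hydroxylates a core subunit, had its highest level in NZO. Its signals were 6.69, 6.73, 6.88, 6.89 and 7.16 in NZO, while B6 ran from 6.33 to 6.65, C3H from 6.23 to 6.58 and 129P2 from 6.45 to 6.65. Every NZO animal was above the 15 others, but these signals lie near the dim level, and Ndufaf5 was dim on 12 of 20 arrays. It exceeded the dim level on all 5 arrays of NZO, 2 of B6, 1 of 129P2 and 0 of C3H. It thus met the filter of 5 or more arrays only through NZO, the strain where it is high. Its p-values and its F-test result are therefore descriptions and give no support of their own. The measured difference of NZO minus B6 was 0.36 ± 0.09 (adjusted p = 0.00993) and NZO minus 129P2 0.35 ± 0.09 (adjusted p = 0.0123). Most arrays of B6 and 129P2 were dim, so the sizes of these differences are uncertain. As C3H was dim on all 5 arrays, the NZO signal was at least 1.18-fold higher there (measured means 6.87 and 6.47, adjusted p = 0.0054). The B6 call had an adjusted p of 0.0527 under quantile normalization.

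Ndufaf2, a chaperone of late complex I assembly, was lower in NZO (7.14, 7.17, 7.17, 7.27 and 7.30) than in B6 (7.39, 7.48, 7.52, 7.62 and 7.73) and 129P2 (7.36, 7.56, 7.56, 7.71 and 7.87). No NZO animal overlapped either strain. The differences were -0.34 ± 0.09 (adjusted p = 0.0175) and -0.40 ± 0.09 (adjusted p = 0.005). The first was lost without B6 replicate 3 (0.0584) and with the spread covariate (0.0549). Ndufaf6 was lower in C3H (6.93 to 7.28) than in B6 (7.36 to 7.54) by 0.35 ± 0.10 (adjusted p = 0.0299). That call was lost without B6 replicate 1, 4 or 5 or C3H replicate 1, 4 or 5 (0.0601 to 0.088) and with the spread covariate (0.203). Ndufaf1, Ndufaf3, Ndufaf4 and Ndufaf7 had no call.

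Complex II is succinate dehydrogenase, an enzyme of both the citric acid cycle and the chain. Sdha, its catalytic flavoprotein, was lower in NZO (11.17, 11.28, 11.41, 11.49 and 11.54) than in B6 (11.64, 11.70, 11.71, 11.79 and 11.92). C3H signals ran from 11.32 to 11.71 and 129P2 signals from 11.49 to 11.71. NZO and B6 did not overlap, and the difference of -0.37 ± 0.09 (adjusted p = 0.0062) held in every alternative fit. The iron-sulfur subunit Sdhb and the membrane anchors Sdhc and Sdhd had no call; Sdhb stood at 10.69 ± 0.37 in NZO and 11.03 ± 0.05 in 129P2 (SD, n = 5), a difference of -0.34 ± 0.14 (SE, adjusted p = 0.143).

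Complex III passes electrons from ubiquinol to cytochrome c. All 9 of its genes had a lower mean in NZO than in B6 and C3H, and 8 of 9 a lower mean than in 129P2, but only the small subunit Uqcr11 passed the F-test. Its signals were 8.92, 9.0003, 9.15, 9.28 and 9.42 in NZO and 9.36, 9.41, 9.55, 9.70 and 10.29 in 129P2, with B6 at 9.30 to 9.69 and C3H at 9.22 to 9.54. The highest NZO animal overlapped the 2 lowest of 129P2. NZO minus 129P2 was -0.51 ± 0.14 (adjusted p = 0.0194), and the call was lost without NZO replicate 2 or 3 (0.0591 and 0.0608). It was also lost with only the 2 strains in the fit (0.0663) and without the 3 arrays of narrowest spread (0.116). The second Uqcr11 probe set had means of 8.91 in NZO and 9.24 in 129P2. Cyc1, the cytochrome c1 haem subunit, was at 9.83 ± 0.23 in NZO and 10.16 ± 0.07 in B6 (SD, n = 5), and its difference of -0.33 ± 0.11 (SE) missed the threshold (adjusted p = 0.0517). Uqcrc1, Uqcrc2, Uqcrfs1, Uqcrb, Uqcrq, Uqcrh and Uqcr10 had no call.

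Cycs, the mobile electron carrier that also triggers apoptosis when released from mitochondria, went the other way from most of the chain and was highest in NZO. Its signals were 11.38, 11.60, 11.70, 11.78 and 11.85 in NZO. They were 11.21, 11.32, 11.35, 11.36 and 11.48 for B6, 11.08, 11.12, 11.17, 11.25 and 11.36 for C3H, and 11.13, 11.17, 11.31, 11.38 and 11.45 for 129P2. NZO did not overlap C3H, and its lowest animal lay inside the ranges of B6 and 129P2. NZO was higher than C3H by 0.46 ± 0.09 (adjusted p = 0.00163), than 129P2 by 0.37 ± 0.09 (adjusted p = 0.00866) and than B6 by 0.32 ± 0.09 (adjusted p = 0.0246). Cycs has 3 probe sets: a second one had means of 11.42 for NZO, 11.03 for B6, 10.90 for C3H and 11.02 for 129P2, and the third was dim on 19 of 20 arrays. Which of the 3 reads the gene at the locus printed below was not tested, nor was a share of copy transcripts in the signal. With the mean of the 3 probe sets, the calls against 129P2 and B6 were lost (0.216 and 0.126). The B6 call was also lost without B6 replicate 1 or 3 or NZO replicate 3 or 4 (0.0517 to 0.0735) and with equal array medians (0.11). The window before the Cycs start (GRCm38.p6, chr6:50566570-50566819, minus strand) is printed because Cycs was the electron carrier with its highest level in NZO, and it holds the NRF1 core, in capitals, 60 bases before the start.
Cycs: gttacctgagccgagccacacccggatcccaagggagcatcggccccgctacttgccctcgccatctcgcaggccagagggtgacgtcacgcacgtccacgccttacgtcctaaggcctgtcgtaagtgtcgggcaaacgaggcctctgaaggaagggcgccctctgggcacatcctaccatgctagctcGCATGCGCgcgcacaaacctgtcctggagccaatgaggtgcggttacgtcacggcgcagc

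Complex IV, cytochrome c oxidase, has several subunits with isoforms for different tissues, and the largest strain difference of all 90 genes was in one of them. Cox6b2, known as the testis form of subunit 6b, had signals of 7.50, 7.61, 7.68, 7.86 and 7.88 in 129P2. It had 6.61, 6.76, 6.89, 6.91 and 6.93 in NZO, 6.62, 6.70, 6.71, 6.71 and 6.74 in B6, and 6.64, 6.68, 6.79, 6.86 and 6.90 in C3H. All 5 animals of 129P2 were above all others, whose 3 strains overlapped. 129P2 was higher than B6 by 1.01 ± 0.08 (2.02-fold, adjusted p = 6.38e-09), than C3H by 0.94 ± 0.08 (1.91-fold; C3H minus 129P2 -0.94, adjusted p = 2.92e-08) and than NZO by 0.89 ± 0.08 (1.85-fold; NZO minus 129P2 -0.89, adjusted p = 4.99e-08). The signal was above the dim level on all 20 arrays, and the 3 calls held in every alternative fit. However, Cox6b2 met the stricter filter on dim genes only through 129P2, the strain where it is high. The fit with that filter therefore gives these calls no support of its own. In NZO, B6 and C3H it lay near that level (in B6 replicate 1, 6.62 against a dim level of 6.58). The sizes of the 3 fold differences are therefore uncertain. Across the 20 arrays the genes most like Cox6b2 were Cox6b1 (r = 0.45), Atp5mpl (r = 0.44) and Uqcr11 (r = 0.39), and the most opposed was Ndufs5 (r = -0.89). These are descriptions over arrays of 4 strains, and the strain order carries much of them. The reference window before Cox6b2 (GRCm38.p6, chr7:4753095-4753344, minus strand), shown as the promoter of the gene with the largest difference, holds no NRF1 core.
Cox6b2: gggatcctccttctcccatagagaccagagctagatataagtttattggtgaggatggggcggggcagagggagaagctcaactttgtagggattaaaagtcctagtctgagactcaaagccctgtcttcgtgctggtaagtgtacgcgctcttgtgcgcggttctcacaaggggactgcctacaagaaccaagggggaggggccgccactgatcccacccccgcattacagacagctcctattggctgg

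Cox6b1, the widely expressed form of the same subunit, was also highest in 129P2. Its signals were 11.14, 11.29, 11.56, 11.59 and 11.84 in NZO and 11.77, 11.93, 12.01, 12.01 and 12.03 in 129P2, with B6 at 11.57 to 11.87 and C3H at 11.55 to 11.96. Only the highest NZO animal reached the 129P2 range, and NZO was lower by 0.47 ± 0.11 (adjusted p = 0.00674), a call kept in every alternative fit. Cox4i1, the main form of subunit 4, was lower in NZO (9.95, 9.95, 10.39, 10.44 and 10.60) than in 129P2 (10.59 to 10.93) by 0.45 ± 0.12 (adjusted p = 0.0216). That call was lost without NZO replicate 2 or 3 or 129P2 replicate 2 or 3 (0.0504 to 0.0823). It was also lost with equal array medians (0.0595), with only the 2 strains (0.0506) and without the 3 arrays of narrowest spread (0.136). Cox5a was lower in NZO (9.47, 9.55, 9.9974, 10.06 and 10.08) than in B6 (10.02 to 10.44) by 0.37 ± 0.11 (adjusted p = 0.0379). Its call was lost without B6 replicate 1, 3, 4 or 5 or NZO replicate 2 or 3 (0.058 to 0.129). The same held under quantile normalization (0.0571), with the spread covariate (0.137), with only the 2 strains (0.0884) and without the 3 arrays of narrowest spread (0.11). Cox4i2, the form of subunit 4 known from lung, was at 7.06 to 7.47 in C3H and 6.84 to 7.03 in B6, with no overlap, but its call (0.27 ± 0.08) was the narrowest of all, with an adjusted p that rounds to 0.05. It was lost in 23 of 30 alternative fits, among them leaving out any of 15 animals (0.0517 to 0.159).

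The other isoforms gave no strain call. Cox7b2, another testis form, was dim on all 20 arrays, and Cox8b was dim on 11 and Cox8c on 1. Cox8a, Cox7a2, Cox7b, Cox6a1, Cox6c, Cox5b, Ndufa4 and Ndufa4l2 were detected on all arrays and were not called. Cox7a2l, which helps complexes III and IV associate and is known for a shortened form in B6-related mice, had strain means of 9.90 to 9.94, the narrowest range of the 90 genes (0.04). Its second probe set, also above the dim level on all arrays, had means of 9.35 for B6, 9.20 for 129P2, 9.18 for NZO and 9.14 for C3H. The array measures its transcript level and not the form of the protein.

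**Figure D4:**
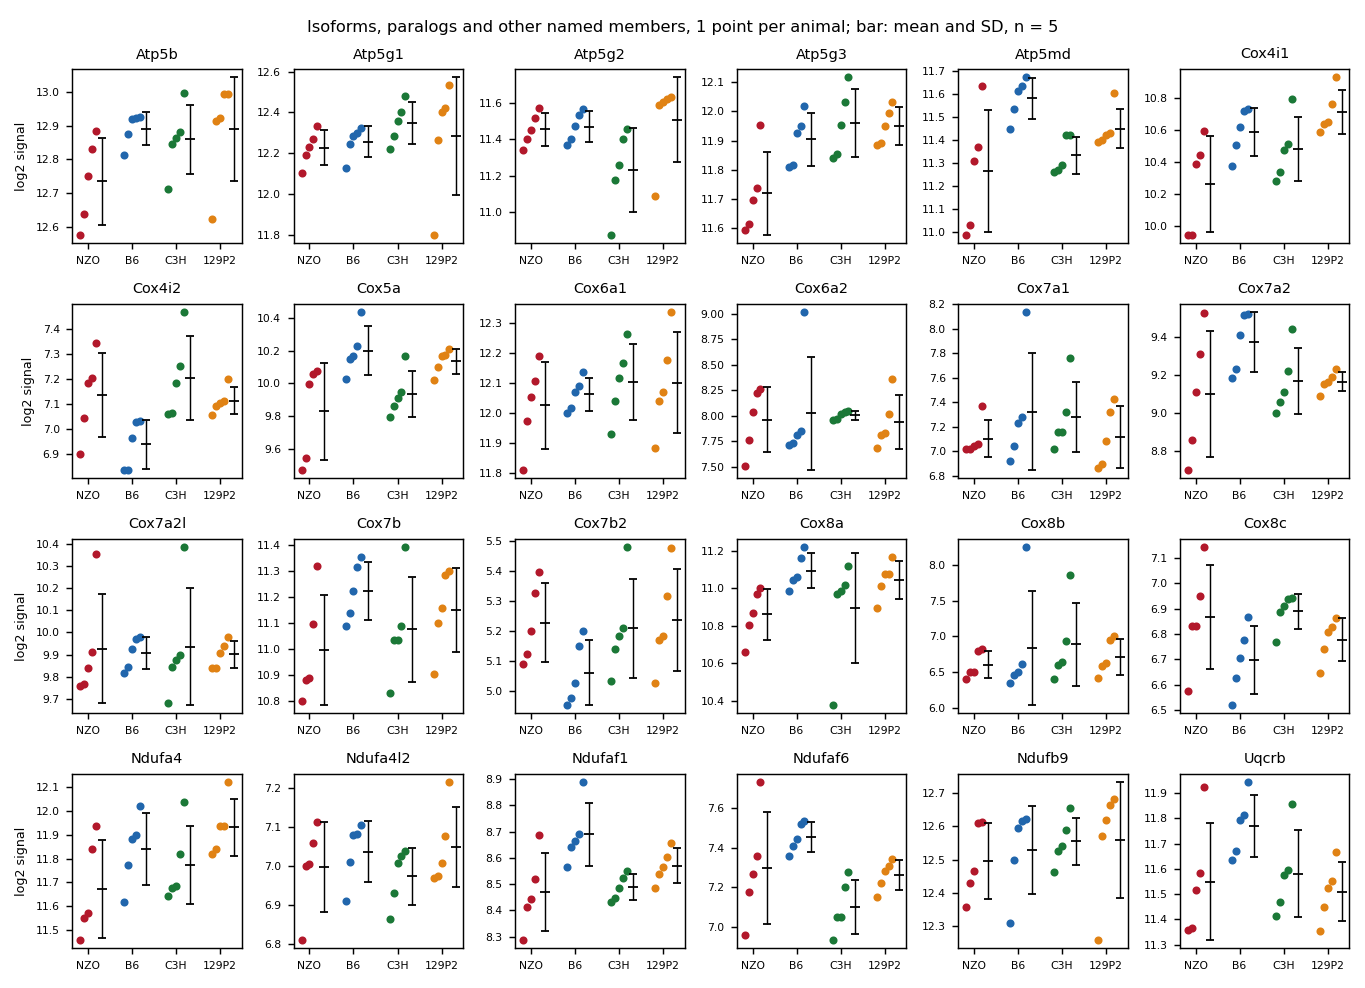
Log2 signal (y axis, each panel on its own scale) of isoforms, paralogs and further named genes in each animal, sorted by value within a strain, with the mean and SD (bar, n = 5). Most strains overlap; single animals stand high for Cox6a2, Cox7a1 and Cox8b.

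The isoforms of heart and skeletal muscle (Cox6a2, Cox7a1 and Cox8b) varied between animals rather than strains. In B6 replicate 5 they reached 9.02, 8.14 and 8.25, while the other 4 B6 animals had at most 7.85, 7.28 and 6.62. In C3H replicate 2, Cox7a1 and Cox8b were at 7.76 and 7.86, the next highest of all animals. The same animals had the highest summed level of the skeletal muscle markers Acta1, Myh4, Myl1, Tnnt3, Ckm and Mylpf: 12.25 in B6 replicate 5 and 11.75 in C3H replicate 2, against 9.60 to 10.89 in the other 18. Over the 20 arrays that level had r = 0.79 with Cox6a2, r = 0.90 with Cox7a1 and r = 0.95 with Cox8b, as a description in which those 2 animals weigh heavily. Of the 6 markers 5 were bright enough to test, none differed between strains in a pairwise test, and no strain difference of the 3 isoforms was called.

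**Figure D5:**
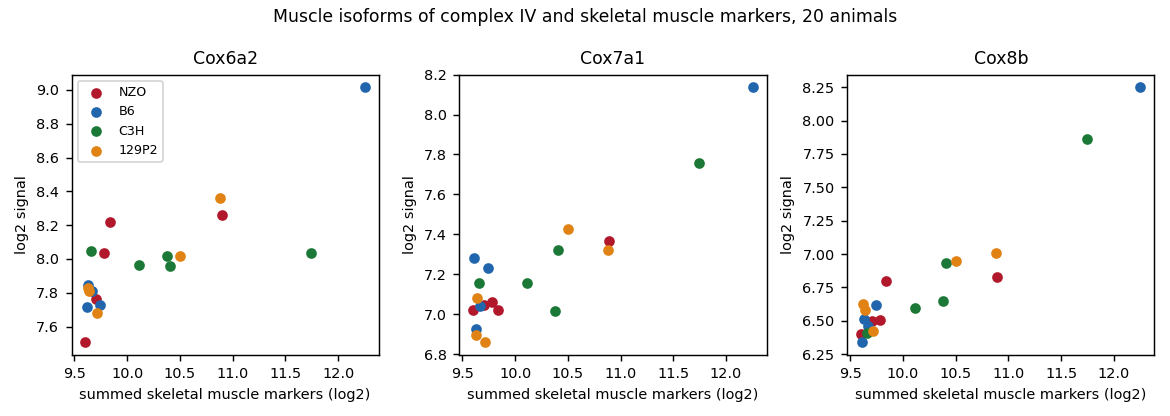
Log2 signal of Cox6a2, Cox7a1 and Cox8b (y axes) against the summed log2 level of 6 skeletal muscle markers (x axis), 1 point per animal, coloured by strain. B6 replicate 5 lies at the upper right of every panel, and C3H replicate 2 has the next highest marker level.

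ATP synthase turns proton flow into ATP, with a catalytic head (Atp5a1, Atp5b, Atp5c1, Atp5d, Atp5e) and a membrane part that includes the c-ring (Atp5g1, Atp5g2, Atp5g3). All 17 genes had a lower mean in NZO than in B6, where 48% of all tested genes did. The median difference was -0.15, and -0.06 with array spread as a covariate. None of the 17 differed by a confidence interval that reached 1.5-fold. Atp5b, the catalytic beta subunit, was at 12.73 ± 0.13 in NZO and 12.89 ± 0.05 in B6 (SD, n = 5), a difference of -0.16 ± 0.08 (SE, adjusted p = 0.208). Atp5mpl, a small membrane proteolipid, passed the F-test (adjusted p = 0.032) with 10.52, 10.66, 10.72, 10.76 and 10.87 in NZO, 10.55, 10.61, 10.65, 10.82 and 10.85 in C3H, 10.79 to 11.01 in B6 and 10.91 to 10.99 in 129P2. The 129P2 animals lay above all those of NZO and C3H, but no pair of strains passed the pairwise test. Atp5md, a small subunit of the dimer interface, was lower in NZO (10.99, 11.03, 11.31, 11.37 and 11.63) than in B6 (11.45 to 11.67) by 0.31 ± 0.10 (adjusted p = 0.0401). Its call was lost without B6 replicate 1, 4 or 5 or NZO replicate 2, 3 or 5 (0.0614 to 0.132). It was also lost with the mean of its probe sets (0.117), the spread covariate (0.152) and only the 2 strains in the fit (0.0948). The same held without the 3 arrays of narrowest spread (0.108), with no filter on dim genes (0.0515) and with equal array medians (0.0509). The 3 c-ring genes encode the same mature protein and had no call.

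The genes around the chain were described from lists chosen with earlier results of these data known. Of 16 regulators of mitochondrial biogenesis, Ppargc1a, the coactivator PGC-1alpha, was lower in NZO (mean 8.16) than in B6 (8.73) by 0.56 ± 0.16 (adjusted p = 0.0252) and than in 129P2 (8.78) by 0.62 ± 0.16 (adjusted p = 0.0138), and Sirt3 was lower in NZO than in B6 by 0.30 ± 0.10 (adjusted p = 0.0479). Both B6 calls depended on single animals and on the processing. That of Ppargc1a was lost without B6 replicate 3 or 4 or NZO replicate 3 or 4 (0.051 to 0.095) and with the spread covariate (0.116). That of Sirt3 was lost without any of 13 animals (0.0525 to 0.117), with no filter on dim genes (0.0552), under quantile normalization (0.129) and with the spread covariate (0.142). With the mean of its probe sets, Ppargc1a had adjusted p-values of 0.0682 and 0.0543. The factors Nrf1, Gabpa, Esrra and Tfam had no call. Transcripts of 2 mitochondrial DNA-encoded subunits were measured, ND3 (13.07 for NZO, 13.17 for B6, 13.13 for C3H and 13.22 for 129P2) and COX2 (13.49 to 13.53), with 0 limma calls in 12 tests and 1 at an unadjusted p under 0.05, in ND3.

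Of 21 assembly factors of complex IV, Cox18, which inserts the Cox2 subunit into the membrane, had the largest difference. Its strain means were 9.79 in NZO, 9.72 in C3H, 9.39 in 129P2 and 8.96 in B6. NZO was higher than B6 by 0.83 ± 0.10 (adjusted p = 4.72e-06), C3H by 0.75 ± 0.10 (adjusted p = 2.12e-05) and 129P2 by 0.43 ± 0.10 (adjusted p = 0.009), and these calls held in every alternative fit. Cox19, a copper-handling factor, was lower in NZO (7.42) than in B6 (7.80) by 0.38 ± 0.12 (adjusted p = 0.0358), a call lost in 8 of 31 fits, among them that with the spread covariate (0.163). Of the 9 complex I assembly genes outside the Ndufaf series, Lyrm2 was higher in C3H (8.33) and 129P2 (8.15) than in B6 (7.64) and NZO (7.74), with C3H minus B6 at 0.69 ± 0.09 (adjusted p = 1.5e-05), also in every alternative fit. In the same list Foxred1, a flavoprotein, was lower in NZO (8.67) than in B6 (9.35) by 0.69 ± 0.18 (adjusted p = 0.0126), with its call lost in 1 fit, that with the spread covariate (0.0677). Tmem186 was higher in NZO than in B6 by 0.28 ± 0.09 (adjusted p = 0.049), a call lost in 17 of 31 fits (highest adjusted p = 0.161). Among 13 genes of the citric acid cycle, Fh1, fumarase, was lower in NZO than in B6 by 0.34 ± 0.09 (adjusted p = 0.0131) and than in C3H by 0.38 ± 0.09 (adjusted p = 0.00849). Idh2, the mitochondrial NADP-linked isocitrate dehydrogenase, was lower in NZO (9.30) than in 129P2 (9.86) by 0.56 ± 0.15 (adjusted p = 0.0184). Leaving out NZO replicate 2 (0.0592) or the 3 arrays of narrowest spread (0.0663) ended this call. Ogdh, of the oxoglutarate dehydrogenase complex, was lower in C3H (10.81) than in B6 (11.11) by 0.30 ± 0.09 (adjusted p = 0.0383), a call lost in 9 of 31 fits (highest adjusted p = 0.246). Of 6 carriers and channels, Vdac1, the outer membrane channel for ATP and metabolites, was lower in NZO than in B6 by 0.42 ± 0.09 (adjusted p = 0.00227). The assembly factors of complexes II (4 genes) and III (5 genes) had 0 calls in limma, with 1 of 24 and 5 of 30 tests at an unadjusted p under 0.05.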

How the data were processed

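The deposited values are log2 signals, which the authors made with Affymetrix Expression Console by RMA, per the submitters' processing notes; versions and a genome build are not given in the sources used here. They were used as deposited. Of 35556 probe sets, 21789 had 1 gene symbol in the platform annotation, 1621 had several and 12146 were unnamed here; only the first were used. Replicate numbers follow accession order and only name the animals. Tested genes exceeded an array's own 40th percentile on 5 or more arrays. Tables were read in R 4.3.3 with the data.table package, version 1.17.8, and limma 3.58.1 was fitted with 4 strain means and an intensity trend (16 residual degrees of freedom), with Benjamini-Hochberg adjustment over 14190 genes. The fit was tested on simulated data. Figures and exact tests used Python 3.11.15, matplotlib 3.10.9 and scipy 1.17.1.

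Values by animal were given for genes past the F-test, isoforms and paralogs by figure and range, and genes called in pairs were named by complex. The members and lists were chosen with earlier results of these data known. Alternatives were no filter or a stricter one, equal medians, quantile normalization, no trend, robust moderation, array weights, the mean of probe sets, only the 2 strains, a 1.5-fold minimum and leaving out each animal; leaving out the 3 narrowest arrays was chosen after seeing the data. Strain sequence differences under the probes were not tested. The number of arrays limits the precision.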

Additional observations from a re-analysis of the deposited data

Results flagged for a closer look

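In 152 groups of 5 animals (38 named genes in 4 strains), 12 held 1 animal whose gap to the next was over 0.71 of the range of its group. Chance gives about 1 in 20 such groups. Of the 12, 4 were 129P2 replicate 2, low in Atp5b (12.62), Atp5g2 (11.09), Ndufa7 (8.47) and Ndufb9 (12.26), and its array was among the 3 of narrowest spread. B6 replicate 5 was high in the muscle isoforms Cox6a2 (9.02) and Cox8b (8.25), and NZO replicate 5 in Cox7a1 (7.37). C3H replicate 2, high in muscle markers, was low in Cox8a (10.38), the liver form of that subunit. NZO replicate 1 was high in Cox7a2l (10.36), 129P2 replicate 4 in Atp5md (11.60) and C3H replicate 1 in Uqcr11 (9.54), and B6 replicate 1 was low in Cox6b2 (6.62). The causes were not tested.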

How the results depend on the processing

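Of 33 pairwise calls, 18 were kept in all alternative fits that tested the gene, no difference reversed, and the others are named beside their results. Both counts include calls of Ndufaf5, which give no support of their own. The fit with the stricter filter gives none to the calls of Cox6b2, which met that filter only through 129P2. Percentages in brackets are the shares of all tested genes called under the same setting. With array weights, calls were 35 in the F-test (29.4%), 37 for NZO minus B6 (22.3%), 11 for NZO minus C3H (10.1%), 26 for NZO minus 129P2 (14.8%), 8 for C3H minus B6 (13.3%) and 4 for C3H minus 129P2 (7.94%). With a 1.5-fold minimum they were 4 (6.12%), 2 (2.64%), 0 (2.3%), 2 (2.91%), 0 (2.04%) and 1 (1.7%), in that order; for the counts of 0 in limma, no difference of that size had an unadjusted p under 0.05 either. Quantile normalization gave 6 for NZO minus C3H (7.96%), 14 for NZO minus 129P2 (10.7%) and 3 for C3H minus B6 (7.93%). The spread covariate gave 9 (9.58%), 23 (13.6%) and 2 (5.95%), in that order. The 60th percentile filter gave 1 for NZO minus C3H (9.02%) and 3 for C3H minus B6 (9.82%); only the 2 strains (6.96%), and leaving out the 3 narrowest arrays (6.91%), each gave 3 for C3H minus B6. Leaving out each animal gave 8 to 21 in the F-test (13.9% to 19.9%), 7 to 27 for NZO minus B6 (6.87% to 15.4%), 2 to 5 for NZO minus C3H (5.19% to 7.26%), 6 to 16 for NZO minus 129P2 (7.14% to 9.66%), 2 to 5 for C3H minus B6 (5.15% to 10.4%), 3 to 4 for 129P2 minus B6 (4.56% to 6.94%) and 2 to 3 for C3H minus 129P2 (3.8% to 5.57%), and NZO was lowest in 48 to 71 genes. For the count of genes lowest in NZO, shares of all tested genes under these settings are not given here. The cause of these changes was not tested.

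No paired analysis was possible because the labels carry no replicate numbers. With 5 arrays a strain, the smallest called difference among the 90 genes was 0.27, and the difference of Ndufaf5 between NZO and C3H is a bound, as C3H was dim on all 5 arrays. Probe sets cannot be compared with each other in level.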

Other observations

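Of 19 tested genes of ubiquinone synthesis and electron entry, 3 were lower in NZO than in B6 (Chdh, Coq2 and Coq3), 1 than in C3H (Coq3) and 3 than in 129P2 (Chdh, Sqor and Coq4), where 6.64%, 3.09% and 4.61% of all tested genes were. Chdh, which passes electrons from choline, had means of 9.32 for NZO, 9.79 for B6, 9.49 for C3H and 9.75 for 129P2. Its differences of -0.46 ± 0.11 from B6 (SE, limma adjusted p = 0.00577) and -0.43 ± 0.11 from 129P2 (adjusted p = 0.0113) held in every alternative fit. Sqor, which passes electrons from sulfide, was lower in NZO (9.65) than in 129P2 (10.20) by 0.55 ± 0.13 (adjusted p = 0.00758), and Coq3, a methyltransferase of ubiquinone synthesis, was lower in NZO (8.40) than in C3H (8.75) by 0.35 ± 0.08 (adjusted p = 0.00428). Both calls held in every alternative fit. The calls of Coq2 and Coq3 against B6 and of Coq4 against 129P2 were lost in 19, 17 and 12 of 31 fits. Etfa, Etfb, Etfdh, Dhodh, Prodh and Gpd2 were not called; Gpd2 stood at 9.72 in NZO and 9.36 in B6.

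129P2 also stood apart in Tmem242, an assembly factor of ATP synthase, with a mean of 9.01 against 8.59 in NZO, 8.58 in B6 and 8.53 in C3H. The difference of 129P2 minus B6 was 0.43 ± 0.10 (limma adjusted p = 0.0116), and its call was lost with equal array medians (0.0549) and with only the 2 strains in the fit (0.0743).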
